A study of Mus musculus with 2 samples.

Results

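The immunity-related GTPases are a family of interferon-inducible proteins, and 7 of their genes were followed here: Igtp, Irgm1, Irgm2, Iigp1, Tgtp1, Tgtp2 and Ifi47. Their probes were found by matching the accession of every probe to the RefSeq gene table, which gave 10 probes of 39398 kept and 7 genes of 20649 named on the array. The genes were picked with their difference between these pools already known, so that difference is described here and not tested. Each of 2 mouse groups was read on 1 Agilent array of a single dye: the control group had spleens given phosphate-buffered saline (PBS), the other had spleens remodelled with SiO2 (silica), and RNA of 5 spleens was pooled in each. All mice were female, and both sets of spleens were taken on day 19 after the first injection. Strain, age, route and dose are not given in the sources used here. RNA of both pools went through a blood kit that lyses red and white cells separately and then through removal of globin message. With 1 pool a group there is no measure of the spread between animals, and the number of arrays limits the precision.

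As background, these GTPases are made in many mouse cells after interferon-gamma binds its receptor, and more weakly after type I interferons. Their names follow a motif that grips the nucleotide. Effector members with a GKS motif (Iigp1, Tgtp1, Tgtp2 and Ifi47) load onto the membrane of vacuoles that hold parasites or bacteria and help to break it. Regulators with a GMS motif (Irgm1, Irgm2 and Igtp) sit on the cell's own membranes and keep the effectors inactive there. Promoters of interferon-induced genes are known for gamma-activated sites (GAS) and for interferon-stimulated response elements (ISRE), the latter bound by interferon regulatory factors such as IRF1. In the spleen, natural killer (NK) and T cells are the known makers of interferon-gamma.

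All 7 genes were lower in the SiO2 pool, by 2.60-fold to 4.89-fold. In RNA of whole spleen, fewer cells of a type and less RNA per cell cannot be told apart. Sequences just upstream of their starts are shown because 4 of the 7 genes carry letters matching both GAS and ISRE there. Whether those letters have a part in the differences was not tested. RefSeq promoter windows of build GRCm38.p6, reaching from 250 bases before the start to 50 after it, were matched for 6 of the 7 genes, the missing entry being Iigp1. The 120 bases before the start are printed 5′ to 3′ on the gene's strand, with matches to the ISRE letters (GAAA, any 2 bases, GAAA) and the GAS letters (TTC, any 3 bases, GAA) in capitals, both strands searched. They come from Igtp (chr11:58199436-58199555, plus strand), Irgm2 (chr11:58214857-58214976, plus strand), Tgtp1 (chr11:48992247-48992366, minus strand) and Tgtp2 (chr11:49064213-49064332, minus strand).
Igtp: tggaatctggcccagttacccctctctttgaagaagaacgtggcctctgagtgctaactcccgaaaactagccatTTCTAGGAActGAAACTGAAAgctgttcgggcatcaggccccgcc
Irgm2: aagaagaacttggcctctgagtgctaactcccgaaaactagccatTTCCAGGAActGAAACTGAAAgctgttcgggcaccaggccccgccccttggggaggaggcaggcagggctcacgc
Tgtp1: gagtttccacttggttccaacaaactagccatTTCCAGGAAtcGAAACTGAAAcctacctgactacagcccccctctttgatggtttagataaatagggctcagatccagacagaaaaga
Tgtp2: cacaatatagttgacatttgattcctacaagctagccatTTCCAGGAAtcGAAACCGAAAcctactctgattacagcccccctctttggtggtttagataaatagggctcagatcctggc

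In these 4 windows a GAS match was followed, after 2 further bases, by an ISRE match. The GAS match began 45 bases before the start in Igtp, 75 in Irgm2, 88 in Tgtp1 and 81 in Tgtp2. Of all 32851 promoter windows in the table, 3.44% held the ISRE letters, 8.30% the GAS letters and 0.454% both. The GAS match with the ISRE match 2 bases on, an arrangement picked after the sequences were seen, was found in 5 windows (0.0152%). Those belonged to Igtp, Irgm2, Tgtp1, Tgtp2 and Gm12185, a neighbouring gene of the same family (synonym Irgb2b1 in RefSeq). The family arose by copying of genes, so these windows share descent and are not independent. A match is a string of letters and does not show that a factor binds.

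The other members with a window were Irgm1 (chr11:48871421-48871540, minus strand) and Ifi47 (chr11:49076467-49076586, plus strand). They are set beside 2 related genes, Gm12250 (chr11:58183723-58183842, plus strand) and Gm5431 (chr11:48902153-48902272, minus strand). Gm12250 had a log2 difference, SiO2 minus PBS, of -2.21, while the 2 probes of Gm5431 disagreed (0.010 and -1.45).
Irgm1: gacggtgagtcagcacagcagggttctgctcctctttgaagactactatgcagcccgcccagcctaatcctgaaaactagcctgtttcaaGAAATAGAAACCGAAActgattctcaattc
Ifi47: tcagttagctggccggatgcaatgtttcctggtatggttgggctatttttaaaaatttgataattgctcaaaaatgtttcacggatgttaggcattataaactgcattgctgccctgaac
Gm12250: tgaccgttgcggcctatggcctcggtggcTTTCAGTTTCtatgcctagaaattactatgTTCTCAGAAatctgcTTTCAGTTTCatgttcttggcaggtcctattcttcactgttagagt
Gm5431: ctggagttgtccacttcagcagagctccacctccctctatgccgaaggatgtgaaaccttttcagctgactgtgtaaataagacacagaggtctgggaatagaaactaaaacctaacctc

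Irgm1 held 2 ISRE matches that share bases, beginning 30 and 24 bases before the start, and no GAS match. Ifi47 and Gm5431 held neither string of letters in the window. Gm12250 held 2 ISRE matches on the opposite strand, 91 and 46 bases before the start, with a GAS match between them at 61 bases.

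The regulators come first. Signals are the scanner's processed intensities before scaling, and each log2 difference is SiO2 minus PBS after each array was divided by its 75th percentile signal, which was 670 for PBS and 469 for SiO2. Igtp, also called Irgm3, was spotted 10 times on each array. Its signal ran from 12353 to 13875 with a median of 13189.7 over the PBS spots, and from 2662 to 2805 with a median of 2759 over the SiO2 spots. The sets of spots did not overlap before scaling. These spots repeat the same probe on the same pools, so the gap cannot be set against the spread between animals. The log2 difference was -1.75 ± 0.035 (SD over 10 spots of the same pools), a value 3.37-fold lower in SiO2. Irgm2 had a signal of 8368 in PBS and 1372 in SiO2, a log2 difference of -2.10, which made it the regulator with the lowest value.

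Irgm1, the regulator whose loss in mice is known to impair blood stem cells and defence against intracellular bacteria, was read by 2 probes. The brighter gave 7940 in PBS and 2141 in SiO2, a log2 difference of -1.38. The dimmer gave 1511 and 513, a log2 difference of -1.05. Both probes were lower in SiO2, and by both Irgm1 was the regulator that differed least.

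Among the effectors, Iigp1 (also called Irga6), which polymerises on parasite vacuoles, was read by 2 probes. The brighter had a signal of 3399 in PBS and 515 in SiO2, a log2 difference of -2.21. The dimmer had 2124 in PBS and 192 in SiO2, a log2 difference of -2.96, the lowest of the 10 probes. Both probes read the gene at over 4-fold lower in SiO2, and they differed from each other by 0.75 on the log2 scale.

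Tgtp1 and Tgtp2 (both also called Irgb6) are near-identical copies on the same chromosome, so a probe assigned to either may read both. The brighter Tgtp2 probe had a signal of 14424 in PBS and 2067 in SiO2, a log2 difference of -2.29. Its dimmer probe had 79.7 in PBS and 19.9 in SiO2, a log2 difference of -1.49. The single Tgtp1 probe had 152 in PBS and 34.9 in SiO2, a log2 difference of -1.61. All 3 probes were lower in SiO2, and the dim ones differed less than the bright one. Ifi47 (also called Irgd) had a signal of 16463 in PBS and 3603 in SiO2, a log2 difference of -1.68.

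**Figure D1:**
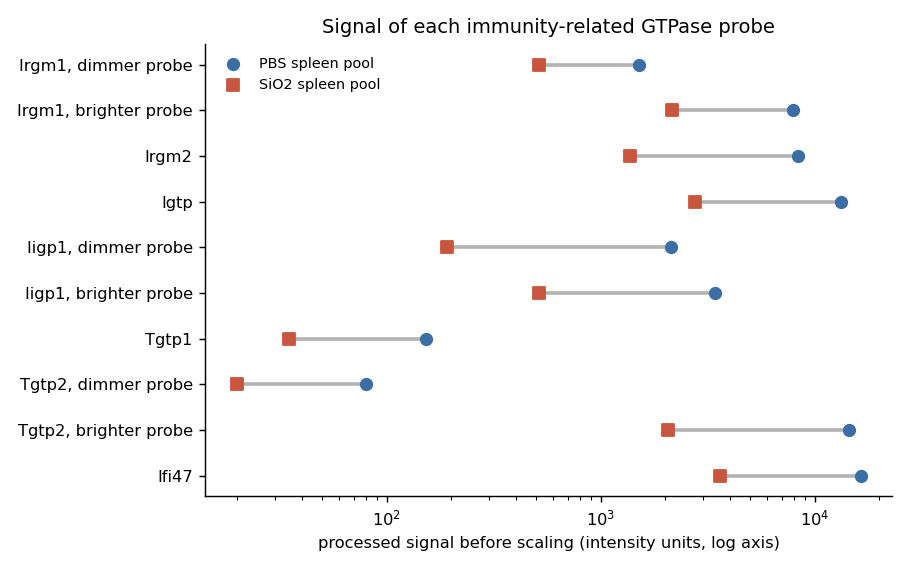
Processed signal of the 10 probes of the 7 genes before scaling (intensity units, log axis), with a circle for the PBS pool, a square for the SiO2 pool and a grey line joining them; each point is 1 array, and the Igtp point averages 10 spots. In every pair the SiO2 square lies left of the PBS circle, from 513 against 1511 for the dimmer Irgm1 probe to 192 against 2124 for the dimmer Iigp1 probe.

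Each gene is given by its brightest probe above background. All 10 probes were well above background on both arrays and none was saturated, so no fold is a bound. Lower by any amount were 7 of 7 genes, against 47.7% of the 16774 named genes measured. At least 2-fold lower were 7 of 7, against 3.69%, and at least 4-fold lower were 3 of 7 (Tgtp2, Iigp1 and Irgm2), against 0.483%. Since the genes were picked on this contrast, nothing is read from those shares. The median log2 difference of the 7 was -1.75, while that of all genes measured was 0.030. From the lowest upward the order was Tgtp2, Iigp1, Irgm2, Igtp, Ifi47, Tgtp1 and Irgm1, and they ranked between place 46 and place 259 among all genes.

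The order is a description of single probes. Over 306 repeated probes, the SD of the log2 difference between spots was 0.063 at the median and 0.262 at the 95th percentile. Of the steps between neighbours in the order, that from Irgm2 to Igtp (0.35) was larger than this 95th percentile, and the other 5 steps, of 0.066 to 0.24, were smaller. That SD covers repeats of the same probe only. It does not measure the spread of a step between 2 genes, so no step is called beyond error by it. The 2 probes of a gene differed by 0.33 for Irgm1, 0.75 for Iigp1 and 0.80 for Tgtp2, and another choice of probe reorders the genes. The regulators ran from -2.10 to -1.38 and the effectors from -2.29 to -1.61, and these ranges overlapped.

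**Figure D2:**
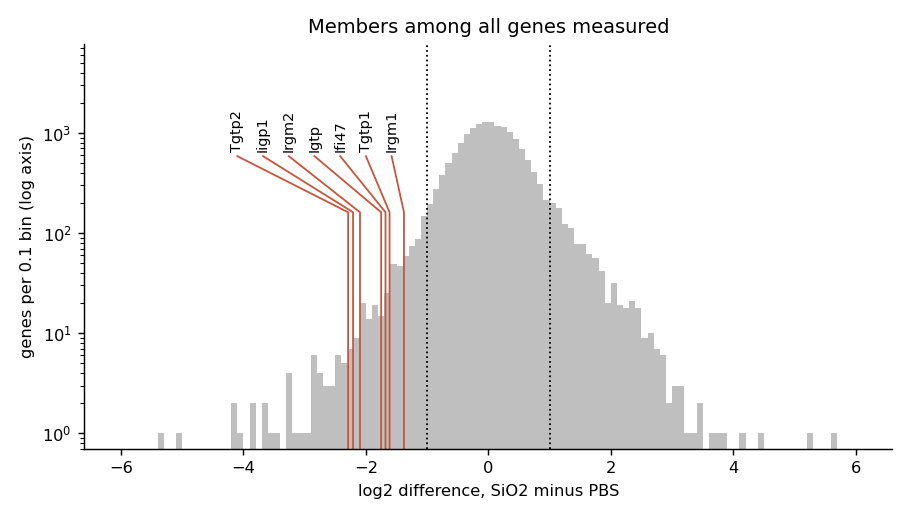
Number of genes (log axis) in each bin of the log2 difference, SiO2 minus PBS, for the 16774 genes measured, with red lines at the 7 immunity-related GTPases and dotted lines at a 2-fold difference in either direction. The 7 lines lie between -2.29 and -1.38, all left of the lower dotted line, while the bulk of genes is centred at 0.030.

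Related GTPase genes outside the 7 were taken from a list of 7, of which 6 were measured. At least 2-fold lower were 4 of these 6, against 3.69% of all genes, none was 2-fold higher, against 6.62%, and the median log2 difference was -1.98. Gm4841 (signal 519 in PBS and 37.6 in SiO2) had a log2 difference of -3.28, or -2.24 with another background correction, normexp. Gm4951 (5700 and 537) was at -2.89, and F830016B08Rik (162 and 33.8) at -1.75, or -0.88 and short of 2-fold under normexp. Gm12250, known as Irgb10, a GTPase that acts on bacterial membranes, had signals of 938 and 142 and a log2 difference of -2.21. Irgq, a distant relative, was at -0.44, and Irgc1, known from testis, was not above background on either array. The probes of Gm5431 disagreed: the brighter gave 98.6 in PBS and 69.6 in SiO2, a log2 difference of 0.010, and the dimmer gave 76.7 and 19.6, a log2 difference of -1.45.

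By the order of genes in the RefSeq table, 6 of the 7 genes lie in 2 clusters on chromosome 11, and Iigp1 lies on another chromosome. The first cluster runs from Irgm1 to Ifi47 and holds Tgtp1 and Tgtp2, and the second holds Gm12250, Igtp and Irgm2. Within the first, Gm12185 was at -1.24 (signals of 54.7 and 16.3) and 9930111J21Rik2, known as Irgb5, at -0.83. The gene 9930111J21Rik1, a further relative, was at -0.44 by its brighter probe and 0.84 by its dimmer one. The nearest 4 measured genes on each side of either cluster came to 16. Of these, 13 were above background on both arrays, and they ran from -0.62 to 0.65 with a median of 0.087, all within 2-fold. The other 3 (Olfr56, Olfr1394 and 1810065E05Rik) were not above background in SiO2, so their differences are bounds and a 2-fold lower level there was not measurable. Among the 13 above background on both arrays were Trim7 (0.15) beside Irgm1 and Mrpl22 (0.063), a mitochondrial ribosome protein, beside Gm12250. These neighbours were picked by position after the values of the 7 were known.

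**Figure D3:**
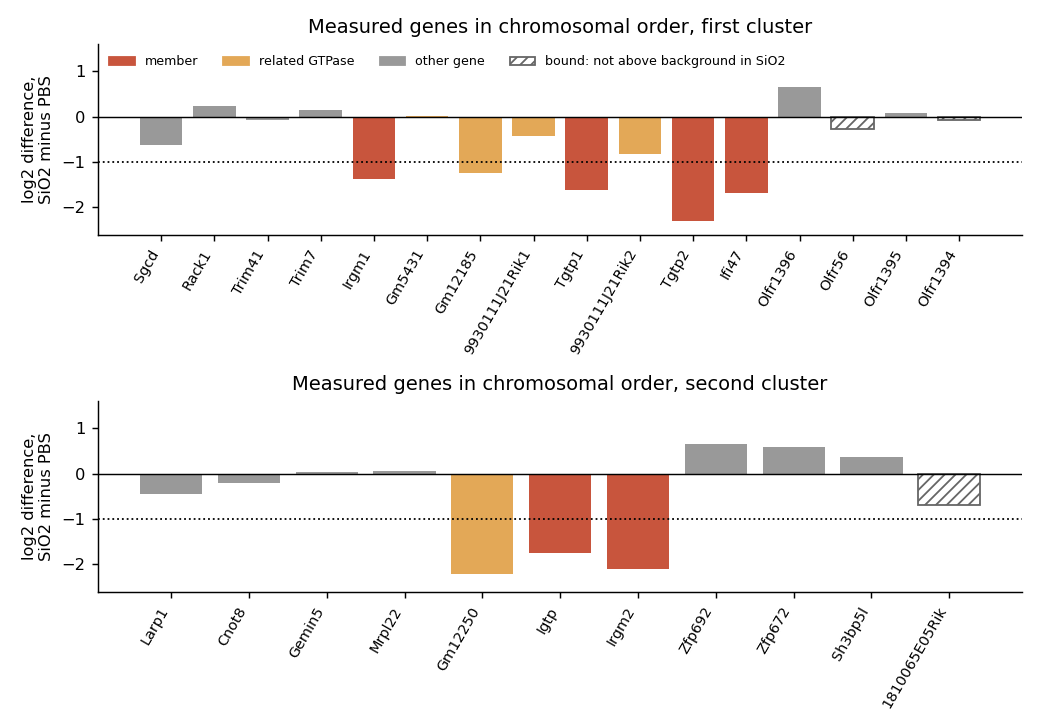
Log2 difference, SiO2 minus PBS, of measured genes in their chromosomal order across both clusters on chromosome 11. Bars are red for Irgm1, Tgtp1, Tgtp2, Ifi47, Igtp and Irgm2, amber for related GTPase genes and grey for other genes. Hatched bars are bounds where a gene was not above background in SiO2, and Iigp1, on another chromosome, has no bar. The dotted line marks 2-fold lower. The red bars reach -1.38 to -2.29, and the grey bars on either side lie between -0.62 and 0.65.

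The interferon-gamma pathway was followed from ligand to target in lists of named genes, each read beside the 3.69% of all genes that were at least 2-fold lower and the 6.62% that were at least 2-fold higher. Of 15 genes of interferon-gamma receptor signalling, 3 lay at 2-fold lower or beyond, none lay as far on the higher side, and the median log2 difference was -0.52. The ligand itself, Ifng, had a signal of 243 in PBS and 88.1 in SiO2, a log2 difference of -0.95, just short of 2-fold. The receptor chains Ifngr1 (-0.26) and Ifngr2 (-0.19) and the kinases Jak1 (0.11) and Jak2 (-0.10) lay near 0. The transcription factor Irf1 had a signal of 19110.2 in PBS and 4248 in SiO2 (log2 difference -1.66, or -1.16 by its other probe), and Irf8, a factor of macrophages and dendritic cells, was at -0.87. Socs1, the feedback inhibitor of the JAK kinases, had 1659 and 255 (-2.19), while the phosphatase Ptpn6 was at the list's median. Ifng, the receptors, the kinases and Irf8 are named here after their values were seen.

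Genes that bring about interferon-gamma production numbered 12, of which 4 passed 2-fold on the lower side and 0 on the higher side; their median was -0.58. These were Eomes (-1.28), a transcription factor of NK and memory T cells, Il18 (-1.21), Il12a (-1.05) and Il15 (-1.01), the last 3 being cytokines that act on NK cells. Under normexp only Il18 of these stayed past 2-fold. With B and T cell markers set to no difference, no member of the list was 2-fold lower and 1 was 2-fold higher. In that setting 1.693% of all genes were at least 2-fold lower and 13.002% at least 2-fold higher. The 1 higher gene was Il12rb1 (1.03, against 0.69 in the main values), whose other probe was at -1.42 in the main values. Nearest the list's median were Il18rap (-0.44) and Ebi3 (-0.73). Type I interferon receptor signalling numbered 9 measured genes, with a median of -0.29. Past 2-fold on the lower side were 3 of them, and 0 on the higher side. These were Usp18 (-1.62), which limits signalling at the receptor, Stat2 (-1.46) and Irf7 (-1.16). Under normexp Irf7 was at -0.77. The receptor chain Ifnar1 was at the median, and Ifnb1 was not above background on either array.

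Other targets of interferon-gamma included 7 of 15 past 2-fold on the lower side and 0 on the higher side; the median of all 15 was -0.92. The lowest were Batf2 (-2.19), a transcription factor of activated macrophages, the chemokine Cxcl10 (-2.16), the Fc receptor Fcgr1 (-2.02), the ubiquitin-like Ubd (-1.80) and Nlrc5 (-1.56, or -0.76 by its other probe), the activator of MHC class I genes. Ciita, the activator of MHC class II genes, was at the median with signals of 3719 and 1379. Of the class II pathway genes in this list, named after their values were seen, H2-Aa (-0.073) and H2-Ab1 (0.11) lay near 0. H2-Eb1 (-0.32) and Cd74 (-0.67) were lower, within 2-fold. Guanylate-binding proteins, the other large family of interferon-induced GTPases, centred at -1.56, and 8 of 10 were lower by 2-fold or more. The lowest 5 were Gbp2b (-3.69), Gbp4 (-2.40), Gbp2 (-2.05), Gbp5 (-2.04) and Gbp3 (-1.76). Under normexp Gbp2b, with signals of 223 in PBS and 12.1 in SiO2, was at -1.65, above the other 4.

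**Figure D4:**
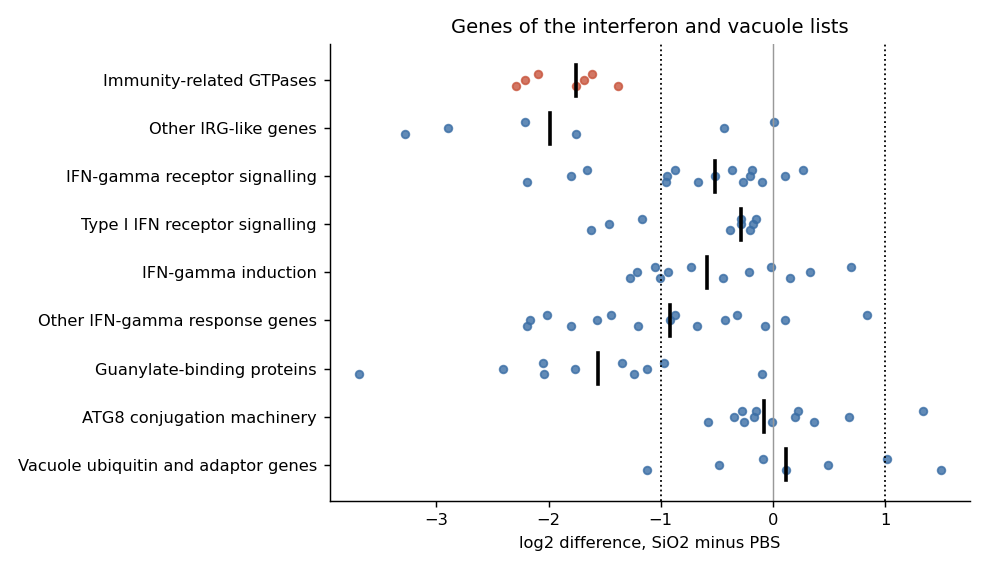
Log2 difference, SiO2 minus PBS, of each measured gene in 9 lists, with the immunity-related GTPases in red, the other lists in blue, a black bar at each list's median and dotted lines at a 2-fold difference; vertical spread within a row only separates points. The red points lie between -2.29 and -1.38, the receptor signalling list spreads from -2.19 to 0.27, and the ATG8 conjugation list centres at -0.079.

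The effector GTPases are known to need the machinery that couples ATG8 proteins to membranes in order to reach the right vacuole. Of 12 genes of that machinery, 1 passed 2-fold on the higher side, against 6.62% of all genes, and 0 on the lower side, against 3.69%. The median of these 12 was -0.079. The sign of that median turned under 4 of the 12 other settings tried. Genes of the coupling step, named after their values were seen, all lay within 2-fold. They were Atg3 (-0.15), Atg5 (-0.25), Atg10 (-0.58), Atg16l1 (-0.35), Atg7 (-0.28, or 0.21 by its other probe) and Atg12 (-0.0052, or 0.23 by its other probe). Atg4b, a protease that trims ATG8 proteins, had signals of 150 in PBS and 264 in SiO2, a log2 difference of 1.33. Genes of vacuole ubiquitin and its adaptors had 1 of 7 members at least 2-fold lower, against 3.69% of all genes. This was the antibody-binding ligase Trim21 (-1.12). On the higher side 2 of the 7 passed 2-fold, against 6.62% of all genes. These were the autophagy receptors Optn (signals of 191 and 378, 2.83-fold higher after scaling) and Nbr1 (log2 difference 1.02, or 0.86 under normexp). The median of this list, 0.11 at Calcoco1, turned below 0 under 4 settings. These include the authors' deposited values, which lack Traf6, Sqstm1 and Optn.

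Markers of the cells in the spleen also differed between the pools, some lists lower in SiO2 and others higher. Their part in the result was not tested. Their counts past 2-fold stand beside 3.69% of all genes lower and 6.62% higher. NK cell markers were at least 2-fold lower in 8 of 9, with a median log2 difference of -1.88, a range from -2.62 to 0.005, and a summed level that went from 20.5 in PBS to 5.02 in SiO2, in multiples of each array's 75th percentile signal. Markers of cross-presenting dendritic cells were lower in 5 of 5, with a median of -1.69 and a summed level of 7.08 in PBS and 2.15 in SiO2. Some of these calls depended on the processing. Under normexp the NK markers Klrb1c (-0.89), Klrk1 (-0.66) and Klre1 (-0.62) fell short of 2-fold. With B and T cell markers at 0, so did the NK markers Klrd1 (-0.72) and Klrk1 (-0.86). In that setting the dendritic cell markers Batf3 (-0.76) and Cadm1 (-0.88) also fell short. Red pulp macrophage markers were lower in 2 of 7 (median -0.50, summed level 73.3 and 48.9) and general macrophage markers in 1 of 8 (median -0.39, 56.8 and 30.8). B cell markers (median -0.50, 91.8 and 66.5) and T cell markers (median -0.25, 31.7 and 27.1) had no member past 2-fold, and all 19 were above background on both arrays. Erythroid markers were at least 2-fold higher in 9 of 10 (summed level 110 in PBS and 231 in SiO2) and neutrophil markers in 6 of 10 (142 and 253). Markers of the mesothelium that covers the organ were at least 2-fold lower in 6 of 7. Of these Upk1b, Krt19 and Bnc1 were not above background in SiO2, so the median of -3.85 is an upper bound, and the summed level was 5.28 in PBS and at most 0.842 in SiO2. Stroma markers were lower in 1 of 5 (median -0.88, summed level 12.3 and 5.74) and plasmacytoid dendritic cell markers in 1 of 5 (median -0.094, 73.1 and 62.5), while endothelial markers had no member past 2-fold (median 0.032, 15.4 and 11.5). In the other lists named here no measured marker was below background on either array.

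All members with a value had it below 0 under each of the 12 other settings tried, Tgtp1 having none in the authors' deposited table. The median of the 7 ran from -1.81 under quantile normalization to -1.42 with the B and T cell markers at 0 among 10 of these settings. All members measured stayed at least 2-fold lower in those, except Tgtp1 under normexp (-0.68). When the brightest spike-in, an added control RNA, was set to no difference, 1 of the 2 settings added after seeing the data, the median was -1.23 and Irgm1, at -0.85, fell short of 2-fold. That scaling moved the median of all genes from 0.030 to 0.56, the B and T cell scaling moved it to 0.36, and normexp to 0.18. Both scalings add 1 constant to every gene, so the distance of the 7 from the median of all genes stayed at -1.78 by construction; under normexp it was -1.98. The share of all 2-fold calls that were lower was 35.8% in the main values, 11.5% with the B and T cell markers at 0 and 5.19% with the spike-in at 0.

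**Figure D5:**
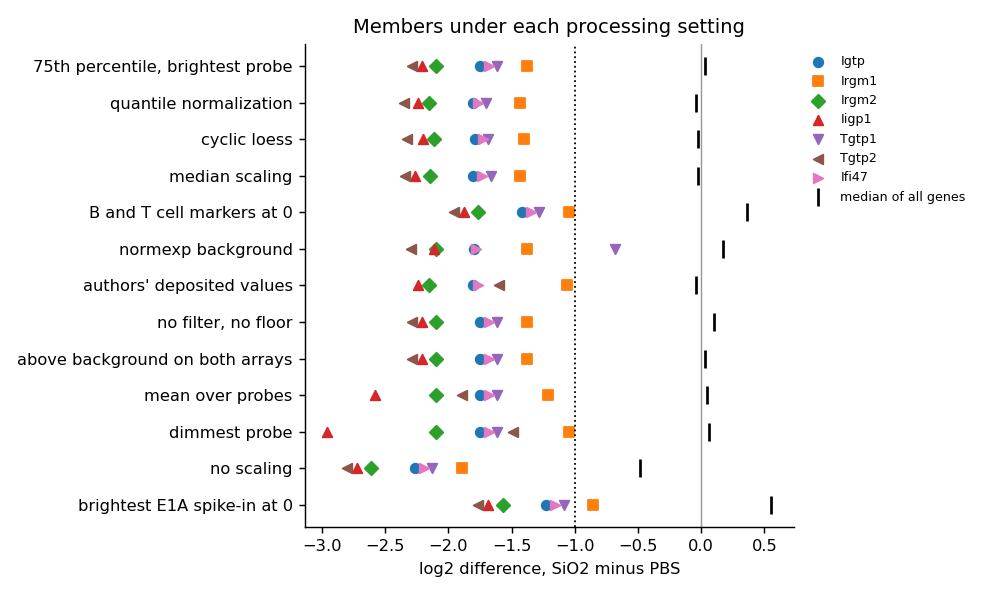
Log2 difference, SiO2 minus PBS, of each of the 7 genes (coloured symbols) under 13 processing settings in rows, with black ticks at the median of all genes and a dotted line at 2-fold lower; Tgtp1 has no probe among the authors' deposited values. All symbols lie left of 0, with Tgtp1 at -0.68 under normexp and Irgm1 at -0.85 with the spike-in at 0 to the right of the dotted line.

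In the authors' deposited table, 6 of the 7 genes had a probe. The authors' deposited table gave log2 differences of -1.81 for Igtp, -2.15 for Irgm2, -1.77 for Ifi47 and -2.24 for Iigp1, each by the probe used here. In the authors' deposited table, Irgm1 (-1.06) and Tgtp2 (-1.60) were given by their dimmer probes.

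Likeness of pattern could be measured over 2 arrays only, as the distance of a gene's log2 difference from the median of the 7. Outside the lists, the 5 nearest genes above background on both arrays were Ifi27l2b, of a family named for induction by interferon (-1.74), the ciliary transcription factor Foxj1 (-1.74), the chemokine Ccl24 (-1.76), the apolipoprotein Apoc1 (-1.74) and the kallikrein Klk1b26 (-1.73). All were within 0.019 of that median.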

How the data were processed

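Spot intensity was measured on 2 Agilent arrays, PBS and SiO2. Per the file headers, the deposited scanner files come from Agilent Feature Extraction 11.0.1.1 (the submitters' processing notes name version 9.1), and the processed intensity is background-subtracted. The authors' deposited value table holds log2 values of 26049 probes, with medians of 5.68 in both columns; against the scanner signal its slope was 0.995 for PBS and 1.01 for SiO2, so its scale is log2 and its sign that of the signal, while how its centring was done stays unknown.

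Control spots and outlier spots (145 and 148 of 43020) were left out. Processed intensities were put on the log2 scale, the array's 75th percentile was subtracted, and spots of 1 probe were averaged. Spots well above background made up 75.5% (PBS) and 74.9% (SiO2). Probes were named by unversioned accession through the RefSeq table of GRCm38.p6: 27217 of 39398 matched 1 symbol. Genes took the brightest probe flagged well above background in either pool; a dim value was raised to the lowest signal above background. Calls were at 2-fold and 4-fold. No test was possible with 1 array a group, and no test, p-value or interval is given. Members and lists were chosen with earlier results of these data known. From each list, up to 5 genes a direction past 2-fold and those nearest the median are named; others are marked in the text. The values of 1 listed gene are not reported here. Alternatives used limma 3.58.1 in R 4.3.3 (normexp with offset 50 on the median spot signal, since no mean signal is in the files, quantile and cyclic loess); the rest ran in Python 3.11.15. The calling step was tested on simulated data.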

Additional observations from a re-analysis of the deposited data

How the results depend on the processing

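Among 10 settings, the median of the 7 genes (-1.75) moved by more than the spot error with the dimmest probe of each gene (-1.68) and with B and T cell markers at 0 (-1.42). With settings added after seeing the data it was -2.26 without scaling and -1.23 with the brightest spike-in at 0. The spike-ins did not shift evenly (unscaled log2 differences of -1.04, -0.094 and -0.24), so that scaling rests on 1 probe. The 8 other pathway lists held 86 measured genes in the main values. Of these, 3 were at least 2-fold higher, beside 6.62% of all genes. With B and T cell markers at 0 the count was 6, beside 13.002% of all genes. In the authors' deposited values, which lack some listed genes, it was 1, beside 5.77%. The count was 0 without scaling, beside 2.43%, and 7 with the spike-in at 0, beside 20.58%. Across these settings the count rose and fell with the share of all genes. At least 2-fold lower were 30 of the 86 in the main values, beside 3.69% of all genes. With the spike-in at 0 this count was 18, beside 1.13% of all genes. List medians near 0 turned in sign. The ATG8 list turned to 0.25 with B and T cell markers at 0, 0.45 with the spike-in at 0, 0.20 with the dimmest probe and 0.038 with the mean over probes. Receptor signalling turned to 0.0085 with the spike-in at 0. Type I signalling turned to 0.045 with B and T cell markers at 0 and 0.24 with the spike-in at 0. The vacuole list turned to -0.28 in the authors' deposited values, -0.082 under cyclic loess, -0.073 under quantile normalization and -0.40 without scaling. Traf6, Sqstm1 and Optn of that list have no deposited value, so the deposited median covers fewer genes than the others. Beyond the settings' own shifts, the causes were not tested. Naming probes by symbols of the scanner files and comparing protein sequences were not run. No paired analysis was possible because each group has 1 pool. Signals near background, such as those of the Tgtp1 probe, limit precision beside the number of arrays.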
